A study of Mus musculus with 2 samples.

Results

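*Fos*, *Fosb*, *Jun*, *Junb*, *Jund*, *Egr1*, *Atf3* and *Dusp1*, 8 immediate early genes, and *Hspa1a* and *Hspa1b*, 2 heat shock genes, were followed through the cell lineages of the mouse salivary gland. They are 10 of the 50768 genes in the matrices and were taken by symbol, because this group is widely used as a mark of tissue dissociation. All 10 were found in both libraries. The single-cell RNA sequencing (scRNAseq) compared 1 library of NOD/ShiLtJ with 1 library of outbred CD1 control mice, both female, 20 weeks old and untreated. NOD/ShiLtJ is an inbred strain used as a model of Sjögren's disease. Each library pooled submandibular glands with adjacent sublingual glands, from 4 mice per strain in the study's methods and 3 in the labels. Glands were digested at 37 °C, for 10 minutes in the methods and for 15 and then 5 minutes in the labels, which also name different enzymes. EpCAM+ and Ter119+ cells were depleted and dead cells removed before loading. With 1 library of pooled mice per strain there is no replicate, so no strain difference could be tested, and strain cannot be told apart from the handling of a single preparation.

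Immediate early genes are transcribed within minutes of a stimulus, without new protein synthesis, because the factors that switch them on are already present in the cell. FOS and JUN family proteins pair through leucine zippers to form AP-1, EGR1 is a zinc finger transcription factor, ATF3 a stress-induced transcription factor, and DUSP1 a phosphatase that switches off MAP kinases. *Hspa1a* and *Hspa1b* encode the inducible HSP70 chaperone and are switched on by heat shock factor 1, which binds heat shock elements. Enzymes, warmth and shear during tissue dissociation are known to induce both groups in many cell types.

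RefSeq promoter windows on GRCm38.p6 were matched by symbol for 9 of the 10 genes, all but *Egr1*. They were searched on both strands for the heat shock element GAANNTTC, for TGACG, which is the core of the cyclic AMP response element (CRE), for the whole CRE TGACGTCA, for the AP-1 site TGANTCA, for the TATA box TATAAA and for the CArG box bound by serum response factor. The whole CRE contains TGACG on each strand. The heat shock element was in *Hspa1a*, *Hspa1b* and *Jun*, 3 of 9 windows, and in 7.86% of all 32851 windows. TGACG was in 5 of 9 against 20.8% of all windows, the whole CRE in 1 of 9 (*Dusp1*) against 1.79%, and the TATA box in 2 of 9 against 13.6%. The CArG box (1.63% of all windows) and the AP-1 site (7.81%) were in 0 of 9. These matches are letters in a window and not shown to be sites. Each window held 300 bases, 250 of them before the start, and sites farther away were not searched. The 250 bases before the start are given for the heat shock pair, for the immediate early gene that shares their motif, and for *Fos* and *Dusp1*, which carry TGACG. Capitals mark GAANNTTC, TGACG or TATAAA on either strand. In order, they lie at chr17:34972157-34972406, chr17:34959239-34959488 and chr4:95052223-95052472 on the minus strand, chr12:85473640-85473889 on the plus strand and chr17:26508473-26508722 on the minus strand.
Hspa1a: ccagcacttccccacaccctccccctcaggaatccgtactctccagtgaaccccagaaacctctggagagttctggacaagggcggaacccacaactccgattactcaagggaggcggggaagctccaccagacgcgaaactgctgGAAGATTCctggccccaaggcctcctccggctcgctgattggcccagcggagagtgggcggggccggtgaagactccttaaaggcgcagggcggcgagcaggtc
Hspa1b: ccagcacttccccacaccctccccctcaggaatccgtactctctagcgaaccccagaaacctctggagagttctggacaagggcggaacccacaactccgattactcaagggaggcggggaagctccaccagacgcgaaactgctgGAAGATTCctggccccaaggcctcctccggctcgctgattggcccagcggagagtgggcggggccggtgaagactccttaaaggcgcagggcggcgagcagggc
Jun: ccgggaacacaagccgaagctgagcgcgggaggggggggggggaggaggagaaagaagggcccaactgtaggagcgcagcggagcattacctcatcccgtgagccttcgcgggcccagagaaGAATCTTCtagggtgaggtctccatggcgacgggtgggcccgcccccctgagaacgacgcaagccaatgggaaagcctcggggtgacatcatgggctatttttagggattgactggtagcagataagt
Fos: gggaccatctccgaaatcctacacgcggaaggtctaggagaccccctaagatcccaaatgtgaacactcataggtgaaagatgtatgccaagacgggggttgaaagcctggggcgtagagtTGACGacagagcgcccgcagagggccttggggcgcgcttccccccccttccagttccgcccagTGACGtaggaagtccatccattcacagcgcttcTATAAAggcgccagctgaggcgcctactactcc
Dusp1: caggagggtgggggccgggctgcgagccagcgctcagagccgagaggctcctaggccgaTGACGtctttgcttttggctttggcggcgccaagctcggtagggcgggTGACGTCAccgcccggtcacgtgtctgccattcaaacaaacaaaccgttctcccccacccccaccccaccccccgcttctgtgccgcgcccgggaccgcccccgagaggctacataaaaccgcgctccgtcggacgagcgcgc

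In *Hspa1a* and *Hspa1b* the element lay at the same place, -104 to -97, with -1 the base before the start, and 247 of the 250 printed bases were the same (98.8%). In *Jun* it lay at -128 to -121. The transcripts of the pair share much of the coding sequence and differ after it. Of the 50-base windows of the *Hspa1a* coding sequence, 82.3% (1545 of 1877) also occurred in *Hspa1b*, whereas 0 of the 761 windows after its stop codon did. A read within a shared window cannot be given to either gene alone, so the single values of the pair are uncertain and their sum is given beside them.

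Barcodes with at least 500 UMIs (unique molecular identifiers, which tag captured RNA molecules before amplification) and 300 genes were kept, 6500.0 of 1298073 in NOD and 7014 of 1331542 in CD1, with medians of 5719.5 and 6495 UMIs. The libraries shared 18 kept barcodes. The 10 genes took 0.159% of the kept UMIs in NOD and 0.201% in CD1. A barcode took the name of a lineage when its markers held at least 3 UMIs and 70% of all marker UMIs. This left 1164 NOD and 554 CD1 barcodes without a lineage. Of 14 lineages, 4 had at least 50 barcodes in both libraries, with 2009 NOD and 131 CD1 T-like, 552 and 359 natural killer (NK)-like, 715 and 2961 macrophage-like, and 1069 and 2896 endothelial-like barcodes. The labels call the cells stromal enriched, yet fibroblast-like barcodes numbered 58 in NOD and 17 in CD1. The lineage limit is a range and not a border, with 334 of the 2009 NOD and 36 of the 131 CD1 T-like barcodes near it (under 5 marker UMIs or under 80% of marker UMIs). T-like barcodes held medians of 23 and 18 own marker UMIs and 2 of other lineages in both libraries. Doublets were kept.

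Levels are UMIs summed over the barcodes of a lineage per 1000000 of their UMIs (CPM), with exact 95% Poisson intervals. Strain ratios are log2 values of NOD divided by CD1, above 0 where NOD was higher, with conditional binomial intervals. The intervals hold counting error only, and mouse-to-mouse variation is not in them. Levels are compared across lineages and strains for 1 gene at a time, never between genes. Orders of lineages cover those with at least 20 barcodes in a library, 8 in NOD and 5 in CD1. Below that limit, 5 NOD and 4 CD1 neutrophil-like barcodes held *Fos* at 2186 and 831 CPM and *Dusp1* at 1221 and 712 CPM, above all lineages within it.

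*Fos*, the partner that gives AP-1 its strongest activity, was highest in macrophage-like barcodes among the ordered lineages of both libraries, at 389.6 CPM (371 to 409) in NOD and 278 CPM (270.4 to 285) in CD1. In NOD the level of 51 plasma-like barcodes, 378 CPM (340 to 419.9), overlapped it. In endothelial-like barcodes it stood at 185 CPM in NOD and 142 CPM in CD1, and in NK-like barcodes at 116 and 69.9 CPM. T-like barcodes went the other way, with 89.9 CPM (84.8 to 95.1) in NOD and 149.8 CPM (127 to 175) in CD1. *Fos* was thus higher in NOD in 3 lineages (log2 0.49 in macrophage-like, 0.38 in endothelial-like and 0.73 in NK-like barcodes) and lower in NOD in T-like barcodes (log2 -0.74, -0.98 to -0.49).

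*Fosb*, its close relative, showed the same split. It stood at 186 CPM (179 to 194) in NOD T-like barcodes and 378 CPM (341 to 417) in CD1 T-like barcodes, the highest CD1 level of this gene among the ordered lineages. The T-like ratio of -1.02 (-1.18 to -0.86) was the only log2 ratio of 1 or more in favour of CD1 among the 10 genes and 4 lineages. Elsewhere *Fosb* was higher in NOD, at 292 against 197 CPM in macrophage-like, 271 against 192 CPM in NK-like and 127 against 78.8 CPM in endothelial-like barcodes.

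*Jun*, the DNA-binding partner of FOS proteins, was highest in macrophage-like and endothelial-like barcodes among the ordered lineages of both libraries. In NOD it was also held by fibroblast-like (484 CPM), plasma-like (399 CPM), B-like and dendritic-like barcodes (both 346 CPM). It stood at 685 CPM (661 to 711) in NOD and 812 CPM (799.8 to 825) in CD1 macrophage-like barcodes, and at 719 CPM (698 to 740.4) and 587 CPM (576 to 597) in endothelial-like barcodes. The intervals of macrophage-like and endothelial-like barcodes overlapped in NOD and not in CD1. In NK-like barcodes *Jun* lay at 250.8 CPM in NOD and 171 CPM in CD1, and in T-like barcodes at 161 and 277 CPM.

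*Junb* and *Jund* are the other JUN family members. From the highest to the lowest of the 8 ordered lineages of NOD, levels differed 1.87-fold for *Junb*, 2.39-fold for *Jund* and 4.46-fold for *Jun*. Over the 5 of CD1 they differed 6.61-fold for *Junb*, with 48 epithelial-like barcodes lowest, 1.84-fold for *Jund* and 4.79-fold for *Jun*. *Junb* ranged from 222 to 267 CPM over the 4 lineages in NOD and from 251.2 to 373 CPM in CD1. *Jund* was highest in NK-like barcodes among the 4 in both libraries, at 451 CPM (432 to 470.1) in NOD and 582 CPM (559 to 606) in CD1. Both were lower in NOD in macrophage-like barcodes, *Junb* at 243 against 373 CPM (log2 -0.62, -0.72 to -0.53) and *Jund* at 294 against 401 CPM (log2 -0.45, -0.54 to -0.36).

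*Egr1*, among the ordered lineages, was highest in fibroblast-like barcodes in NOD, at 415 CPM (365 to 470.05) over 58 barcodes, and stood at 328 CPM (245 to 429.6) over 17 barcodes in CD1. Macrophage-like barcodes came next, with 174 CPM (161 to 187) in NOD and 225 CPM (218 to 231) in CD1, followed by endothelial-like barcodes with 88.5 and 74.0 CPM. T-like and NK-like barcodes lay between 30.9 and 48.7 CPM in both libraries. In NOD, T-like, B-like, NK-like and plasma-like barcodes formed a row in which each level overlapped its neighbour.

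*Atf3* was highest in macrophage-like barcodes among the ordered lineages of both libraries, with dendritic-like barcodes next in NOD, at 44.5 CPM. Below the limit of 20 barcodes, 5 NOD and 4 CD1 neutrophil-like barcodes held it at 386 and 59.3 CPM. Macrophage-like barcodes held 162 CPM (149.8 to 174) in NOD and 166 CPM (161 to 172) in CD1, whereas endothelial-like barcodes held 18.9 and 7.91 CPM, NK-like barcodes 6.02 and 2.44 CPM, and T-like barcodes 1.52 and 1.93 CPM, the last from 2 UMIs. The T-like and NK-like levels lay below the empty droplets of their library. The strains overlapped in macrophage-like barcodes (log2 -0.04, -0.16 to 0.08). In endothelial-like barcodes *Atf3* was higher in NOD (log2 1.26, 0.89 to 1.61), from 115 UMIs in NOD and 155 in CD1. Empty droplets, described with the other free RNA values, held *Atf3* at 12.2 CPM in NOD and 45.4 CPM in CD1, so that the CD1 endothelial-like level lay below them.

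*Dusp1*, the MAP kinase phosphatase, was highest in endothelial-like barcodes among the ordered lineages, at 127 CPM (118 to 137) in NOD and 173 CPM (167 to 179) in CD1. Macrophage-like barcodes held 103 CPM (93.5 to 113) and 70.6 CPM (67.0 to 74.4). The order of the strains was thus opposite in these lineages, with log2 ratios of -0.44 (-0.56 to -0.33) and 0.54 (0.39 to 0.70). T-like and NK-like barcodes lay between 17.6 and 37.7 CPM.

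The heat shock pair was held mainly by macrophage-like and endothelial-like barcodes and was close to 0 in T-like and NK-like barcodes. Summed, *Hspa1a* and *Hspa1b* stood at 121 CPM (110.5 to 132) in NOD and 46.6 CPM (43.6 to 49.6) in CD1 macrophage-like barcodes, and at 46.1 CPM (40.9 to 51.9) and 27.0 CPM (24.7 to 29.4) in endothelial-like barcodes. NK-like barcodes held 9.96 CPM in NOD (48 UMIs) and 1.95 CPM in CD1 (8 UMIs). T-like barcodes held 6.31 CPM in NOD (83 UMIs) and 0 UMIs in CD1, where 3 UMIs would have been 2.90 CPM. B-like barcodes of NOD held 2.12 CPM from 10 UMIs. Beyond the 4 lineages, 58 NOD fibroblast-like barcodes held 50.6 CPM (34.1 to 72.2), and 48 CD1 epithelial-like barcodes 100.5 CPM (57.4 to 163) from 16 UMIs in 6 barcodes.

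**Figure D1:**
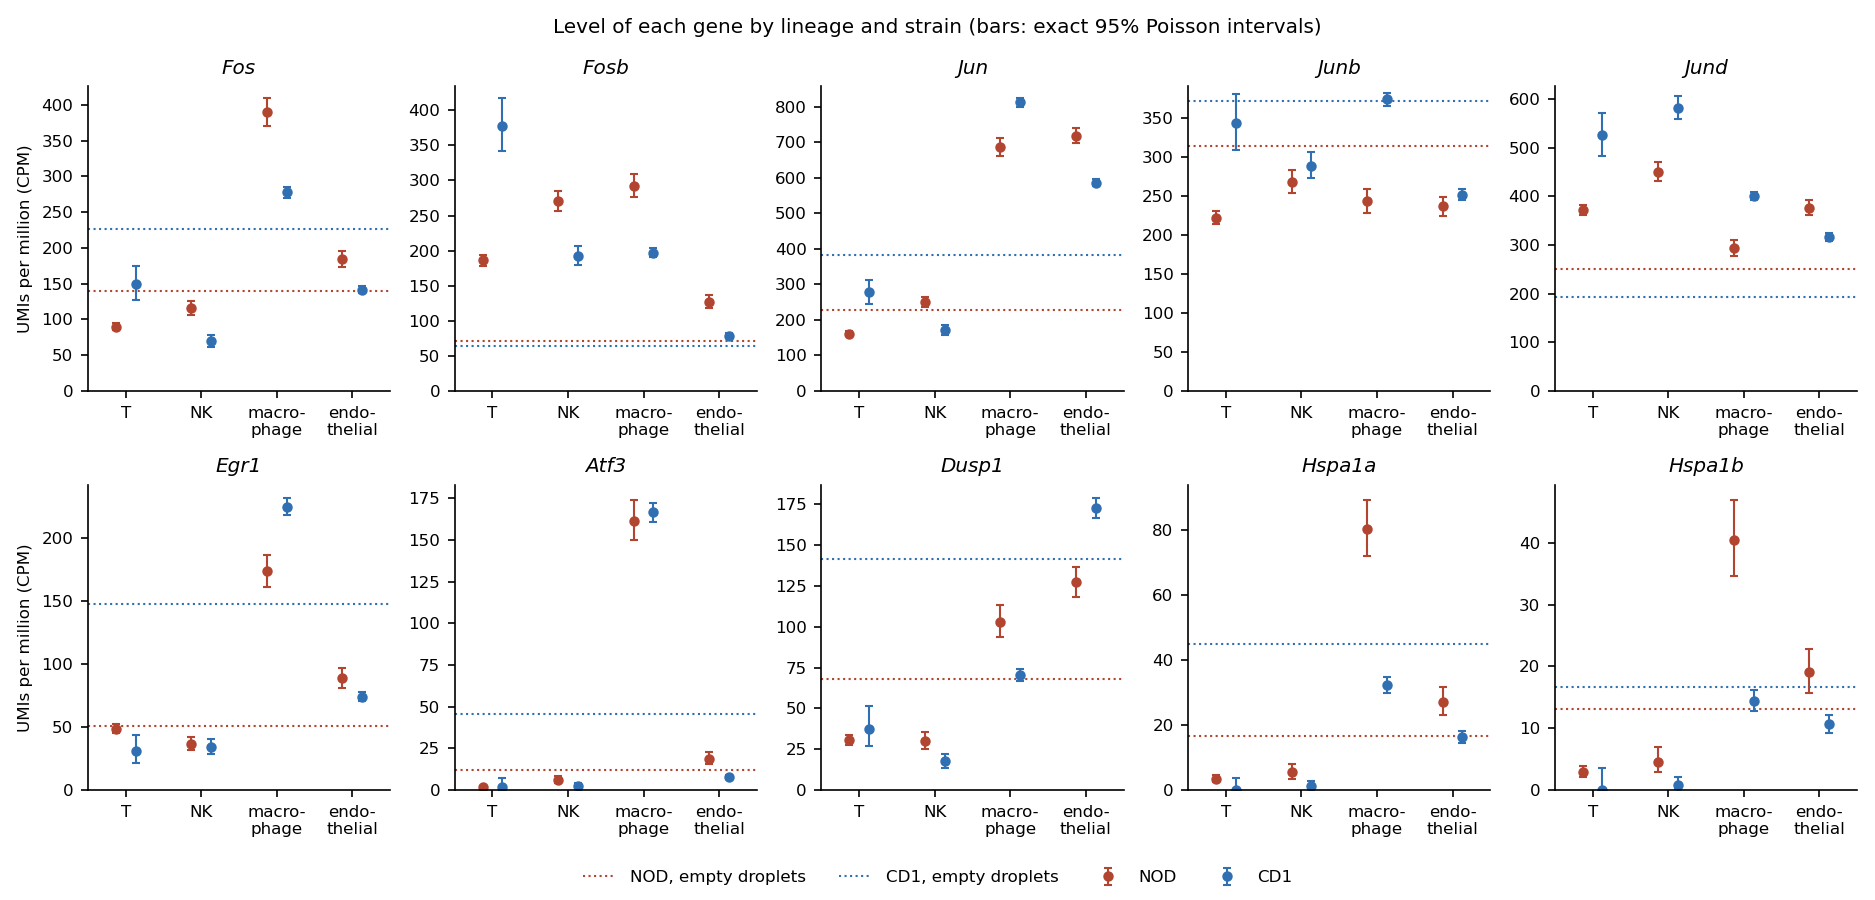
UMIs per 1000000 UMIs (CPM, y axis, from 0) of each of the 10 genes in T-like, NK-like, macrophage-like and endothelial-like barcodes (x axis) of NOD (red) and CD1 (blue), with exact 95% Poisson intervals as bars and the level in empty droplets of each library as dotted lines. *Atf3* stands at 162 and 166 CPM in macrophage-like barcodes and at 18.9 CPM or less elsewhere, *Fosb* and *Jund* lie above the dotted line of their library in every panel position, and both *Hspa1* genes are highest in NOD macrophage-like barcodes.

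Free RNA in the droplets also carried these transcripts. Barcodes with 10 to 100 UMIs, taken as empty droplets, held the 8 immediate early genes at 1133 CPM in NOD and 1572.5 CPM in CD1, and the heat shock pair at 29.8 and 61.4 CPM. *Fosb* and *Jund* were above this level in all 4 lineages of both libraries, by intervals that did not overlap. In NK-like barcodes these were the only 2 of 10 above it, and 7 in NOD and 8 in CD1 were below. T-like barcodes likewise had 2 above and 7 below in each library. Of the 10 genes, 9 in NOD and 6 in CD1 were above it in macrophage-like barcodes, and 7 and 4 in endothelial-like barcodes. The share of all genes above or below empty droplets was not computed, so these counts do not set the 10 genes apart. *Junb* was above it in none of these 4 lineages. Beyond them, 5 NOD and 4 CD1 neutrophil-like barcodes held *Junb* at 2507 and 3679 CPM, against 314 and 371 CPM in empty droplets. The heat shock pair in T-like and NK-like barcodes lay below this level in both libraries. In macrophage-like and endothelial-like barcodes the pair was above it in NOD, at 121 and 46.1 CPM against 29.8 CPM, and below it in CD1, at 46.6 and 27.0 CPM against 61.4 CPM. Empty droplets were taken to hold free RNA alone. A level above or below theirs does not give the free RNA share of a lineage, and the source of the pair in CD1 was not tested. Within CD1 the pair ranged from 0 UMIs in T-like (up to 3.56 CPM) and 1.95 CPM in NK-like to 27.0 CPM in endothelial-like and 46.6 CPM in macrophage-like barcodes. Transcripts of the secretory cells of the gland, such as salivary mucins, were also higher in CD1, with a summed level of 334 CPM in NOD and 948 CPM in CD1 in macrophage-like barcodes, 51.6 and 117 CPM in endothelial-like, 14.9 and 99.4 CPM in NK-like and 45.6 and 77.3 CPM in T-like barcodes. Scaled by these transcripts, free RNA would give 87.6% of the heat shock pair in NOD T-like, 18.2% in NOD NK-like and 75.1% in CD1 NK-like barcodes. In endothelial-like barcodes it would give 13.5% in NOD and 6.396% in CD1, and in macrophage-like barcodes 33.6% and 30.0%. The estimate fails in NOD macrophage-like barcodes, where the secretory level was 136% of that in empty droplets. It also gave more than was measured for *Atf3* in NOD T-like barcodes (149%). The same held for the pair in NOD B-like (785%) and plasma-like barcodes (363%). Empty droplets held secretory transcripts at 246 CPM in NOD and 4161 CPM in CD1. The free RNA share of T-like barcodes was thus put at 18.5% in NOD and 1.86% in CD1, so the 87.6% is uncertain.

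The strain comparison asked whether the dissociation-linked genes differ between the libraries, with a log2 ratio of at least 1 as the mark of size and no test. In T-like barcodes, 0 of the 10 genes passed this mark in favour of NOD, where 10.0% of the 13007 genes with at least 20 UMIs did, and 1 (*Fosb*) in favour of CD1, against 6.19% of all genes. Of the 10 ratios, 5 had an interval below 0 (*Fos*, *Fosb*, *Jun*, *Junb* and *Jund*) and 1 above (*Egr1*, 48.7 against 30.9 CPM, log2 0.65), where 1404 of the 13007 genes lay below and 2123 above. Intervals narrow as UMIs rise, so counts of intervals off 0 also depend on abundance, here and in the lineages below. Summed, the 8 immediate early genes stood at 1112 CPM (1094 to 1130.1) in NOD and 1744 CPM (1665 to 1827) in CD1, a log2 ratio of -0.65 (-0.72 to -0.58). With a stricter lineage limit of 5 marker UMIs and 90% of marker UMIs, which kept 1150 NOD and 56 CD1 barcodes, this ratio was -0.20 and that of *Fosb* -0.31. The size of the T-like difference thus depended on the lineage limit, with few CD1 barcodes behind either value. Its values by depth are given below. For the heat shock pair the CD1 total of 0 UMIs was replaced by a floor of 3 UMIs. This gave a ratio of 2.18-fold in favour of NOD (log2 1.12, the floor value), and the interval began at 0.79. By the secretory estimate, which is uncertain, 87.6% of the NOD level would be free RNA. The floor value was 0.32 with at most 5% mitochondrial UMIs and 0.20 with free RNA taken as 10% of UMIs. It had no value under 3 other settings.

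In NK-like barcodes the immediate early sum was close in the libraries, at 1428 CPM (1394 to 1462) in NOD and 1359 CPM (1323 to 1395) in CD1, a log2 ratio of 0.07 (0.02 to 0.12). This held genes of both directions, with *Fos*, *Fosb*, *Jun* and *Dusp1* higher in NOD by 0.49 to 0.77 and *Jund* lower by -0.37 (-0.45 to -0.29) on the log2 scale. *Atf3* (29 against 10 UMIs, log2 1.30, 0.22 to 2.50), *Hspa1a* (26 against 5 UMIs, 2.14) and *Hspa1b* (22 against 3 UMIs, 2.64, 0.90 to 5.02) passed the mark in favour of NOD, 3 of 10 against 5.84% of the 11961 genes compared. The mark in favour of CD1 was passed by 0 of 10, against 4.42%. A single NOD barcode held 29 of the 48 UMIs of the heat shock pair, and without the top barcode of each library the ratio of the pair was 1.68 in place of 2.35. Of the 10 intervals 7 lay above 0 and 1 below, against 2348 and 1799 of all genes compared. A single NOD barcode also held 13 of the 29 *Atf3* UMIs. *Atf3*, *Hspa1a* and *Hspa1b* lay below the empty droplets of both libraries.

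In macrophage-like barcodes both heat shock genes were higher in NOD. *Hspa1a* stood at 80.2 CPM (339 UMIs) in NOD and 32.2 CPM (648 UMIs) in CD1, a log2 ratio of 1.32 (1.12 to 1.51). *Hspa1b* stood at 40.5 CPM (171 UMIs) and 14.4 CPM (289 UMIs), a ratio of 1.49 (1.21 to 1.77). These were the 2 of 10 genes past the mark in favour of NOD, against 8.03% of 14616 genes, with 0 of 10 in favour of CD1 against 5.79%. As a pair they were 2.59-fold higher in NOD (log2 1.37, 1.22 to 1.53), with the CD1 level below that of its empty droplets. The immediate early sum differed little, at 2341 CPM in NOD and 2523 CPM in CD1 (log2 -0.11, -0.14 to -0.08), with *Fos*, *Fosb* and *Dusp1* higher in NOD by 0.49 to 0.57 and *Jun*, *Junb*, *Jund* and *Egr1* lower by -0.25 to -0.62. Counting the heat shock genes, 5 intervals lay above 0 and 4 below, against 3441 above and 1932 below of all 14616 genes.

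Endothelial-like barcodes had 8 of 10 intervals above 0 and 2 below, *Junb* (236 against 251.2 CPM, log2 -0.09) and *Dusp1* (-0.44), where 4053 of 14393 genes lay above and 2754 below. The single gene past the mark was *Atf3* in favour of NOD, 1 of 10 against 7.98% of 14393 genes, and 0 of 10 passed it in favour of CD1, against 4.14%. The immediate early sum was 1878 CPM (1844 to 1912.5) in NOD and 1630.1 CPM (1612 to 1648) in CD1, a log2 ratio of 0.20 (0.17 to 0.23). The heat shock pair was 1.71-fold higher in NOD (log2 0.78, 0.56 to 0.99). Over the 4 lineages, 6 of 40 ratios passed the mark in favour of NOD, against 5.84% to 10.0% of all genes by lineage. They were *Atf3* in NK-like and endothelial-like barcodes and both heat shock genes in NK-like and macrophage-like barcodes. In favour of CD1 1 of 40 passed it, against 4.14% to 6.19% of all genes. The 40 include *Hspa1b* in T-like barcodes, which had no value.

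**Figure D2:**
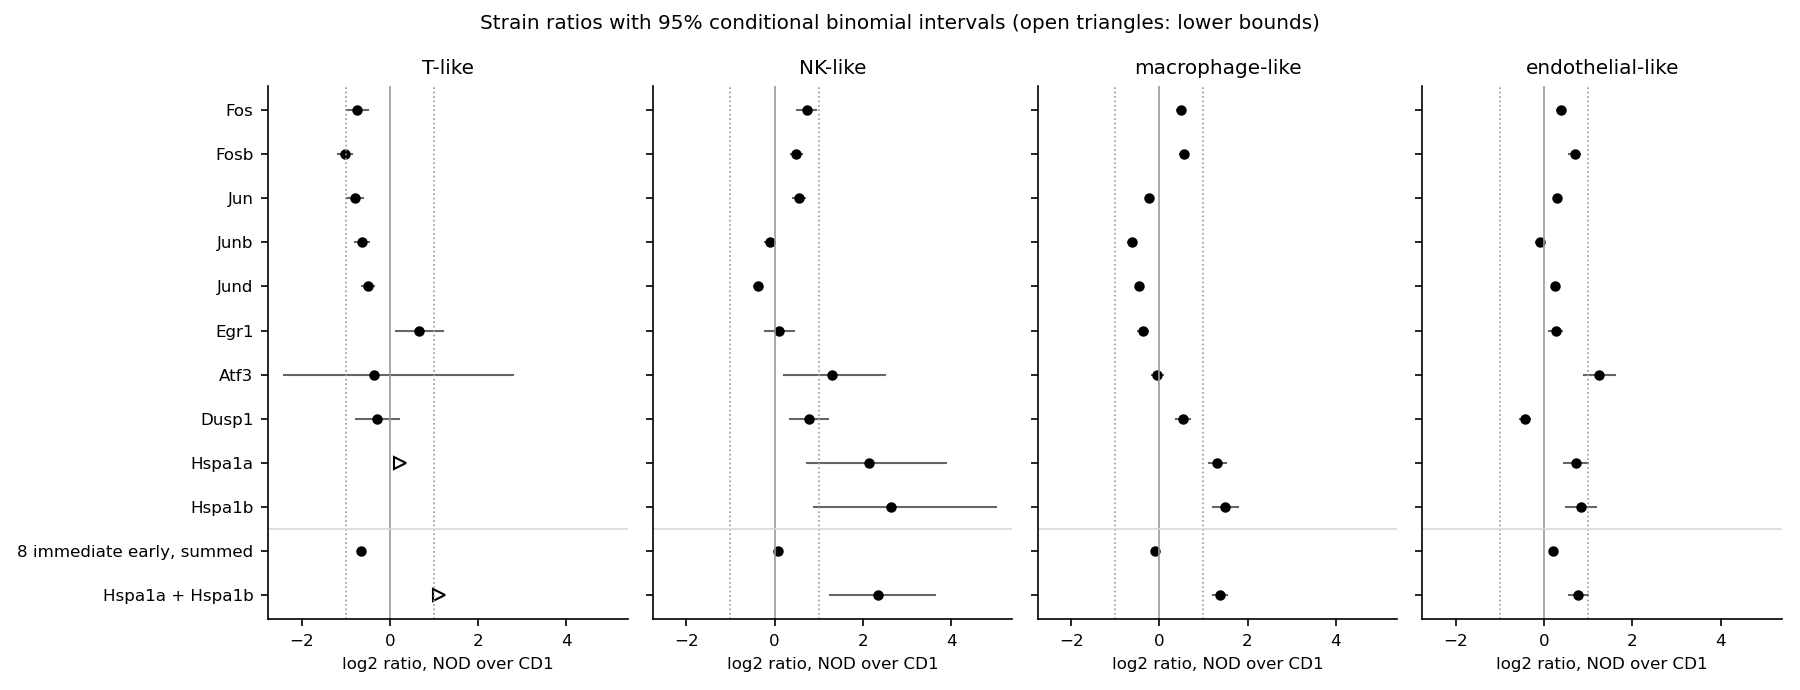
Log2 ratio of NOD over CD1 (x axis) for each of the 10 genes, the 8 immediate early genes summed and the *Hspa1* pair (y axis) in 4 lineages, with 95% conditional binomial intervals as bars and dotted lines at a log2 ratio of 1 in each direction. Open triangles, titled lower bounds, are ratios at a floor of 3 UMIs where CD1 held 0 UMIs, and not lower limits. The interval of T-like *Hspa1a*, not drawn, began at -0.12. The heat shock genes lie to the right of 0 in all panels where they have a value, and *Fos*, *Fosb* and *Jun* lie to the left of 0 in T-like and to the right in NK-like and endothelial-like barcodes. T-like *Hspa1b* has no value, because its NOD level did not exceed the CD1 floor.

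The immediate early genes were unevenly held by the barcodes. Per 10000 UMIs, the median T-like barcode held 8.39 UMIs of the 8 genes in NOD and 9.51 in CD1, while the barcode at the upper 10% held 24.6 and 45.3. The T-like strain gap thus lay in the upper tail, and the top 10% of CD1 T-like barcodes held 37.6% of these UMIs, against 28.7% in NOD. In macrophage-like barcodes the medians were 8.49 in NOD and 15.1 in CD1, with 39.3 and 45.3 at the upper 10%. Endothelial-like medians were 10.1 and 10.4, and NK-like medians 10.2 and 11.7.

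**Figure D3:**
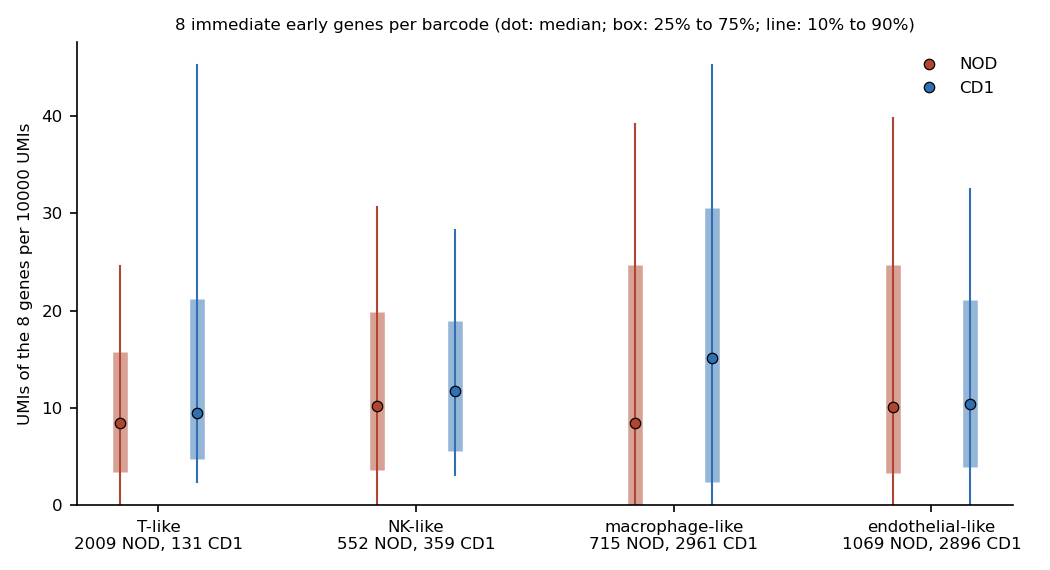
UMIs of the 8 immediate early genes per 10000 UMIs of a barcode (y axis, from 0) in 4 lineages of NOD (red) and CD1 (blue), with the median as a dot, the range from the lower to the upper quartile as a box and the range from the lower to the upper 10% as a line. The T-like medians of 8.39 and 9.51 are close while the upper ends stand at 24.6 and 45.3, and the macrophage-like median is 8.49 in NOD and 15.1 in CD1.

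After thinning each barcode to 500 UMIs, so that depths are equal, the 8 genes were detected in 37.1% (33.5 to 40.7) of NOD and 49.0% (47.2 to 50.9) of CD1 macrophage-like barcodes, by exact Clopper-Pearson intervals. Unthinned shares were 66.0% and 76.3%, at median depths of 3424 and 7028 UMIs. In NK-like barcodes the thinned shares were 39.3% (35.2 to 43.5) and 47.6% (42.4 to 52.9), in T-like barcodes 36.6% and 38.9%, and in endothelial-like barcodes 44.2% and 42.6%. The heat shock pair was seen in 19.6% of NOD and 13.3% of CD1 macrophage-like barcodes unthinned, and in 3.36% (2.16 to 4.95) and 2.13% (1.64 to 2.71) thinned. B-like barcodes of NOD, which had the pair at 2.12 CPM, showed it in 1.08% at a median of 5663 UMIs and in 0.239% thinned.

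Levels moved with the depth of the barcode. In macrophage-like barcodes with 500 to 2000 UMIs the 8 immediate early genes stood at 369 CPM in NOD (252 barcodes) and 463 CPM in CD1 (727), and with 2000 to 5000 UMIs at 648 CPM (143) and 927 CPM (462). From 5000 to 10000 UMIs they stood at 2968 CPM (165) and 2896 CPM (1058), and above that at 2587 CPM (155) and 2642 CPM (714). The shallow barcodes thus held less of these genes per UMI in both libraries, and at 5000 UMIs or more the strain gap of the sum had a log2 size of 0.04 and -0.03. *Jun* went from 90.02 CPM in the shallowest to 899 CPM at 5000 to 10000 UMIs in NOD and from 116 to 949 CPM in CD1. Endothelial-like barcodes showed a smaller climb, from 1156 to 2248 CPM in NOD and from 775 to 1795 CPM in CD1. *Dusp1* stood there at 149 CPM in the shallowest and 125 CPM in the deepest NOD barcodes, with overlapping intervals, and was higher in the deepest CD1 barcodes, at 183 against 133 CPM. The T-like log2 ratio of the immediate early sum was -0.77 at 5000 to 10000 UMIs and -0.53 above that. It was -0.12 (-0.43 to 0.21) at 2000 to 5000 UMIs, with 19 CD1 barcodes, and 1.08 (-0.07 to 2.54) below 2000, with 7. NK-like ratios were -0.65 (-1.37 to 0.11) below 2000 and -0.38 (-0.63 to -0.12) at 2000 to 5000 UMIs. They were 0.19 at 5000 to 10000 UMIs and 0.04 above that.

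The heat shock gap in macrophage-like barcodes lay among the deep barcodes. With 500 to 2000 UMIs the pair stood at 9.31 CPM in NOD and 9.24 CPM in CD1, and with 2000 to 5000 UMIs at 31.2 and 29.4 CPM, ratios whose intervals held 0. From 5000 to 10000 UMIs the levels were 220 CPM in NOD and 72.3 CPM in CD1 (log2 1.60, 1.39 to 1.81), and above 10000 UMIs 97.0 and 30.2 CPM (1.68, 1.42 to 1.94). Endothelial-like barcodes had ratios of 0.91 and 0.93 in these bands. Among endothelial-like barcodes with 500 to 2000 UMIs Hspa1a and Hspa1b held 0 UMIs in NOD, which allows up to 16.7 CPM by the exact interval, and 38.9 CPM in CD1.

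Mitochondrial share, a sign of RNA quality, moved with the immediate early genes as well. In macrophage-like barcodes with under 5% mitochondrial UMIs the sum was 2774 CPM in NOD and 2843 CPM in CD1, from 5% to 10% it was 1971 and 2386 CPM, and above 10% it was 724 and 1191 CPM. The heat shock pair stood at 169, 50.8 and 24.2 CPM in NOD and at 61.1, 35.5 and 9.83 CPM in CD1 over the same steps. In endothelial-like barcodes the pair stood at 46.4, 46.0 and 43.7 CPM in NOD and at 25.5, 28.1 and 41.5 CPM in CD1, so that the log2 strain ratio was 0.86, 0.71 and 0.07. The endothelial-like strain gap of the 8 immediate early genes lay in barcodes under 5%, with ratios of 0.29, -0.03 and 0.01. T-like barcodes kept a lower NOD sum under 5% (1165 against 1780.4 CPM) and from 5% to 10% (1066 against 1832 CPM), while above 10% the order was opposite with 15 CD1 barcodes. The part of depth, mitochondrial share and cell subsets in the strain ratios was not tested.

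**Figure D4:**
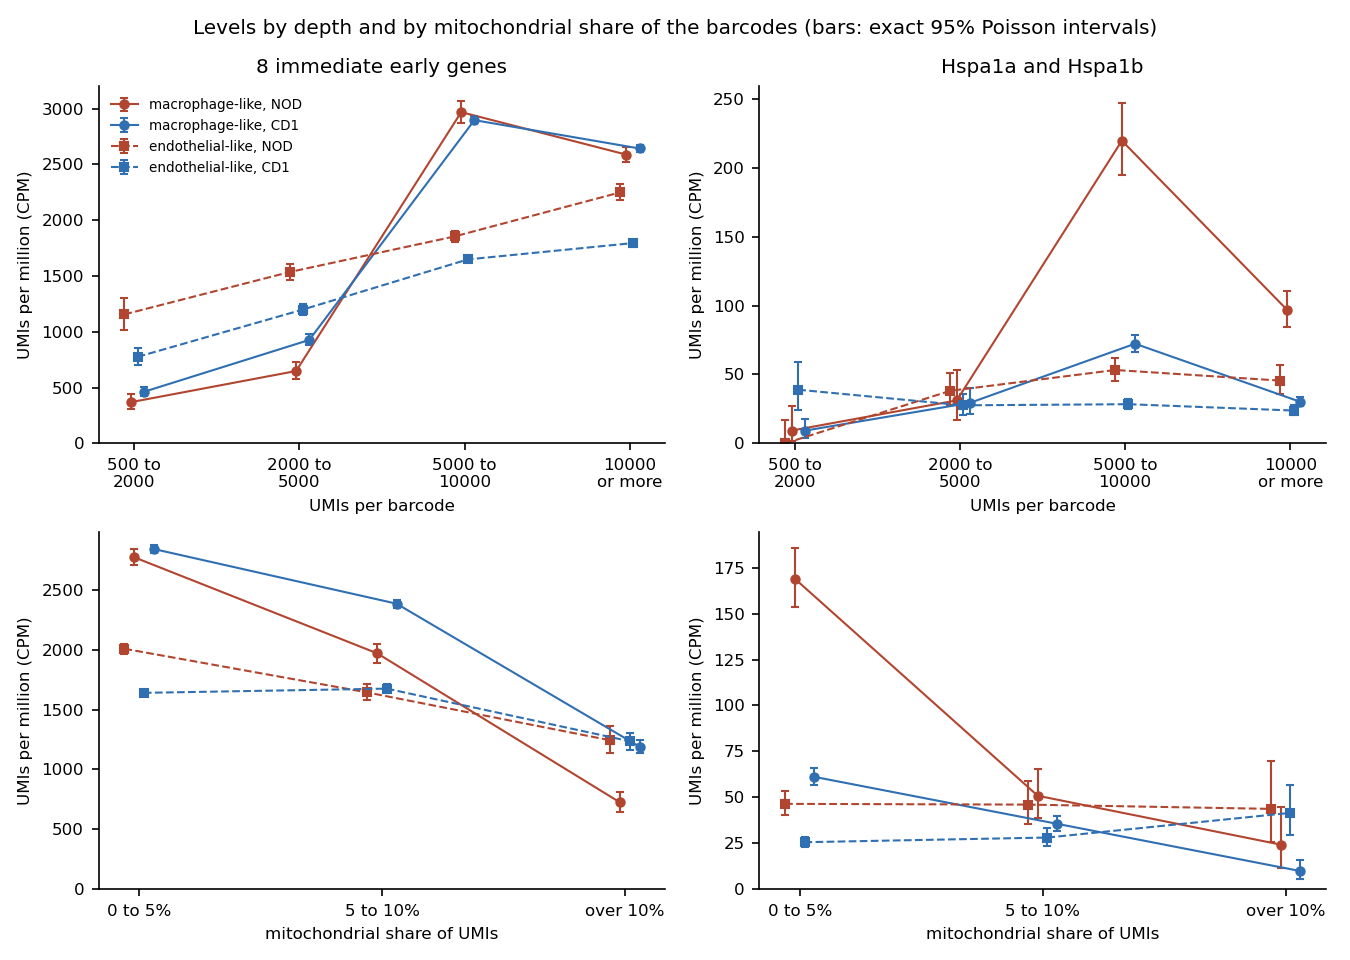
UMIs per 1000000 UMIs (CPM, y axis, from 0) of the 8 immediate early genes summed (left) and of the *Hspa1* pair (right) in macrophage-like (circles, solid lines) and endothelial-like (squares, dashed lines) barcodes of NOD (red) and CD1 (blue), by UMIs per barcode (top) and mitochondrial share of UMIs (bottom), with exact 95% Poisson intervals. Macrophage-like immediate early levels step from 648 and 927 CPM to 2968 and 2896 CPM at 5000 UMIs, where the heat shock pair reaches 220 CPM in NOD and 72.3 CPM in CD1.

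Within a barcode the members moved together only loosely. Over barcodes thinned to 2000 UMIs, *Fos* and *Jun* had a Pearson correlation of 0.47 in 463 NOD macrophage-like barcodes and 0.25 in 2234 of CD1, and of 0.51 in 124 CD1 T-like barcodes against 0.13 in 1878 of NOD. In those CD1 T-like barcodes *Fosb* also moved with *Jun* (0.53) and *Fos* (0.43). The heat shock pair correlated with the immediate early sum at 0.17 in NOD and 0.12 in CD1 macrophage-like barcodes. *Hspa1a* and *Hspa1b* correlated at 0.28 and 0.15 there. These barcodes share a library and its free RNA, and correlations this weak in sparse counts are given as description only.

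Genes with the pattern most like the immediate early sum across endothelial-like barcodes were ranked among 6350 genes by the mean of the NOD (1069 barcodes) and CD1 (2896 barcodes) correlations. The first was *Gm34455* (0.39 in NOD and 0.40 in CD1), a long non-coding RNA gene that neighbours *Dusp1* in the RefSeq annotation. It was followed by *Btg2*, an antiproliferative gene (mean 0.37), *Ier3* (0.34), *Ier2* (0.33) and *Ppp1r15a*, a phosphatase subunit of the stress response (0.32), all 4 immediate early genes themselves. For the heat shock pair the leading genes were *Fn1*, *Clu*, *Amd1*, *Sox17* and *Glul*, with means of 0.09 to 0.11, too weak to set them apart.

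Lists of related genes show how far the same responses went beyond the 10 genes. Of 31 other immediate early genes, 28 were compared in T-like barcodes, where 6 passed the mark in favour of NOD and 2 in favour of CD1, against 10.0% and 6.19% of all genes, with a median log2 ratio of 0.14 against 0.08 over all genes. The median of the 10 genes there was -0.42. *Nr4a3* (300 against 4 UMIs, log2 2.56, 1.19 to 4.45) and *Nr4a2* (373 against 10 UMIs, 1.55), orphan nuclear receptors, were higher in NOD, as was *Socs3*, a cytokine signalling inhibitor, from 151 against 1 UMI (3.57, 1.07 to 8.88). *Fosl2*, another AP-1 member, was higher in CD1 (11.1 against 25.1 CPM, -1.18), as was *Rhob* (3.04 against 9.66 CPM, -1.67). In endothelial-like barcodes the NR4A family had the opposite sign, with *Nr4a1* at 20.9 CPM in NOD and 121 CPM in CD1 (-2.54, -2.80 to -2.28), *Nr4a2* at 19.7 and 58.2 CPM (-1.56) and *Nr4a3* at 5.25 and 14.9 CPM (-1.50). There 1 of 30 other immediate early genes passed the mark in favour of NOD, against 7.98% of all genes, and 4 in favour of CD1, against 4.14%. The 1 in favour of NOD was *Egr3* (8.70 against 3.78 CPM, 1.20). Macrophage-like barcodes had 4 and 1 of 29, against 8.03% and 5.79% of all genes, among them *Nr4a3* (15.4 against 5.52 CPM, 1.48), *Ccn1* in favour of CD1 from 3 against 54 UMIs (-1.92), *Gadd45b*, a stress-inducible gene (27.0 against 11.1 CPM, 1.28), and *Egr3* (21.3 against 10.3 CPM, 1.05). NK-like barcodes had 2 and 0 of 28, against 5.84% and 4.42% of all genes, *Klf2* (87.5 against 37.6 CPM, 1.22) and *Csrnp1* (16.6 against 8.06 CPM, 1.04).

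Of 22 other heat shock genes, *Hsph1*, which encodes HSP110, a nucleotide exchange factor for HSP70, passed the mark in favour of NOD in all 4 lineages. It stood at 63.3 CPM in NOD and 23.2 CPM in CD1 in T-like (log2 1.45, 0.87 to 2.10), at 60.0 and 27.1 CPM in NK-like (1.14, 0.82 to 1.47), at 40.7 and 14.2 CPM in macrophage-like (1.52, 1.24 to 1.80) and at 37.8 and 13.7 CPM in endothelial-like barcodes (1.46, 1.20 to 1.72). *Dnaja4*, an HSP40 co-chaperone, passed it in T-like (14.7 against 5.80 CPM) and macrophage-like barcodes (3.55 against 1.04 CPM), and *Bag3* in T-like barcodes (16.3 against 6.76 CPM). Small heat shock proteins passed it in favour of CD1, *Hspb1* in macrophage-like barcodes from 9 against 103 UMIs (-1.26) and *Cryab* in endothelial-like barcodes from 7 against 59 UMIs (-1.39). In T-like barcodes 3 of 19 passed it in favour of NOD, against 10.0% of all genes, and in NK-like 1 of 18 against 5.84%. Macrophage-like barcodes had 2 of 21 against 8.03%, and endothelial-like barcodes 1 of 21 against 7.98%. In favour of CD1 the counts were 0, 0, 1 and 1, against 6.19%, 4.42%, 5.79% and 4.14% of all genes. The median ratio of the list was 0.44 in T-like (19 genes), 0.25 in NK-like (18), 0.42 in macrophage-like (21) and 0.25 in endothelial-like barcodes (21), against 0.08, 0.03, 0.06 and 0.07 over all genes. Intervals above 0 numbered 11, 10, 15 and 12, and below 0 they numbered 1, 0, 1 and 4, over all genes 2123, 2348, 3441 and 4053 above and 1404, 1799, 1932 and 2754 below.

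The regulators that act before the 10 genes had median log2 ratios of 0.41 in T-like, 0.14 in NK-like, 0.17 in macrophage-like and 0.18 in endothelial-like barcodes. Of 16 upstream regulators such as serum response factor, CREB family members, MAP kinases and heat shock factors, 1 passed the mark in each direction in T-like barcodes, *Crem* in favour of NOD (47.5 against 23.2 CPM) and *Mapk3* in favour of CD1 (16.6 against 33.8 CPM), and 0 did in the other 3 lineages. Among 8 other MAP kinase phosphatases, *Dusp4* (49.7 against 15.5 CPM, log2 1.69) and *Dusp10* (67.0 against 29.96 CPM, 1.16) were higher in NOD and *Dusp5* higher in CD1 (14.1 against 35.8 CPM, -1.35) in T-like barcodes. *Dusp2* was higher in NOD in macrophage-like (15.9 against 6.41 CPM, 1.31) and endothelial-like barcodes (7.88 against 2.45 CPM, 1.69). In the latter *Dusp8* (4.76 against 1.84 CPM, 1.37) also passed the mark, as did *Dusp4* (1.64 against 0.82 CPM, 1.01), with an interval that held 0. In NK-like barcodes *Dusp4* was higher in NOD from 21 against 2 UMIs. Of 12 endoplasmic reticulum stress genes, *Dnajb9* (34.8 against 17.4 CPM, 1.00) and *Trib3* (71 against 1 UMI, with an interval that held 0) passed the mark in favour of NOD in T-like barcodes, 2 of 11 compared. The chaperone *Hspa5* passed the mark in macrophage-like barcodes, at 794 CPM in NOD and 375 CPM in CD1 (1.08, 1.02 to 1.14), 1 of 10 compared. In NK-like barcodes 0 of 10 passed it, and in endothelial-like barcodes 0 of 12. There 7 of the 12 intervals lay below 0 and 0 above, where 2754 of all 14393 genes lay below and 4053 above. Over all genes, 10.0%, 5.84%, 8.03% and 7.98% passed the mark in favour of NOD in T-like, NK-like, macrophage-like and endothelial-like barcodes. In favour of CD1 these shares were 6.19%, 4.42%, 5.79% and 4.14%.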

How the data were processed

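Gene by barcode matrices of raw UMI counts, deposited by the authors without a barcode filter, were used for both libraries. Per the submitters' processing notes they were made with Cell Ranger 8.0.0 on GRCm39, and Seurat 5.0.1 and R 4.3.1 are also named. Barcodes with at least 500 UMIs and 300 genes were kept. Lineages were set by summed UMIs of fixed markers, and a barcode without 3 marker UMIs or 70% from 1 lineage had none. UMIs were summed by lineage and strain. Genes with at least 20 UMIs over both libraries entered a comparison. A strain with 0 UMIs was set to a floor of 3 UMIs over the group. Of each list, at most 3 genes per direction and lineage past a log2 ratio of 1 were named, those whose interval lay farthest from 0, and of the likeness ranking the first 5. The 10 genes, the lists and the rules were chosen with earlier results of these data known. Of 14 salivary secretory genes, 7 in T-like, 3 in NK-like, 12 in macrophage-like and 8 in endothelial-like barcodes were compared. Of these, 1, 2, 7 and 4 were past the mark in favour of CD1, against 6.19%, 4.42%, 5.79% and 4.14% of all genes. In favour of NOD 0, 0, 1 and 1 were past it, against 10.0%, 5.84%, 8.03% and 7.98%. No p-value was computed, as each strain is 1 library. Doublets were kept, and an alternative removed 338 NOD and 394 CD1 barcodes called by Scrublet. Python 3.11.15, numpy 2.4.6, scipy 1.17.1, pandas 2.3.3 and scanpy 1.11.5 were used. Only the ratio intervals were tested on simulated data, with Poisson counts that hold no added spread between barcodes. Promoter sequences came from RefSeq on GRCm38.p6 and transcripts from GENCODE vM21, and their coordinates were not mixed with GRCm39.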

Additional observations from a re-analysis of the deposited data

Results flagged for a closer look

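The strain ratio of 3 AP-1 genes took opposite signs in different lineages. *Fos* had a log2 ratio of NOD over CD1 of 0.73 in NK-like and -0.74 in T-like barcodes, a difference of 1.47. *Jun* stood at 0.55 and -0.78 in the same lineages, a difference of 1.33. *Fosb* stood at -1.02 in T-like barcodes, against 0.57 in macrophage-like barcodes, a difference of 1.59, and against 0.69 in endothelial-like barcodes, a difference of 1.71. All 4 differences involve the 131 T-like barcodes of CD1, and with stricter lineage markers the T-like ratio of *Fosb* was -0.31, of *Fos* -0.36 and of *Jun* -0.20. The differences were not tested, since each strain is 1 library.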

How the results depend on the processing

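Of 39 pairs of gene and lineage with a ratio, 36 kept their sign under all settings that gave a value, out of 12 settings, of which 9 were planned and 3 (at least 5000 UMIs per barcode, free RNA taken as 10% of UMIs, and leaving out the barcode with the most UMIs) were chosen after seeing the data. The exceptions were *Atf3* and *Dusp1* in T-like and *Atf3* in macrophage-like barcodes. Between 5 and 8 single ratios passed the log2 mark of 1, against 7 as reported. Of the 8 sums, the immediate early sum in NK-like barcodes changed sign under 1 setting, equal weights, and the other 7 kept theirs wherever they had a value.

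The values that moved are log2 ratios. With at most 5% mitochondrial UMIs the floor value of the heat shock pair in T-like barcodes was 0.32. The immediate early sum was then 0.14 in NK-like, -0.035 in macrophage-like and 0.29 in endothelial-like barcodes. With at most 10% it was -0.069 in macrophage-like barcodes. With stricter markers it was -0.20 in T-like, 0.14 in NK-like and 0.25 in endothelial-like barcodes. Median-of-ratios scaling gave -0.74 in T-like, -0.17 in macrophage-like and 0.13 in endothelial-like barcodes. Weighting barcodes equally gave -0.0026 in NK-like and -0.36 in macrophage-like barcodes, and 1.04 and 0.42 for the pair in macrophage-like and endothelial-like barcodes. Subtracting free RNA by the secretory list gave -0.93 in T-like and 0.049 in endothelial-like barcodes, and 4.07 for the pair in NK-like barcodes. Free RNA at 10% of UMIs gave 0.13 in NK-like and 0.26 in endothelial-like barcodes, and for the pair 0.20 in T-like, 1.54 in macrophage-like and 1.05 in endothelial-like barcodes. At least 5000 UMIs gave -0.019 in macrophage-like barcodes, and Scrublet 0.25 in endothelial-like barcodes. The cause was not tested. The secretory list gave no value in macrophage-like barcodes, where the secretory level was above that of the empty droplets in NOD. The pair in T-like barcodes had no value with stricter markers, equal weights or the secretory list, and in NK-like barcodes none with free RNA at 10% of UMIs.

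No paired analysis was possible because each strain is 1 library and no test was run. Leaving out a replicate was likewise not possible.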
